A study of Mus musculus with 6 samples.

Results

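Cyclic nucleotide phosphodiesterases are the enzymes that break down cAMP and cGMP, the second messengers through which adrenergic, natriuretic peptide and nitric oxide signals reach the heart muscle. Their families differ in substrate and control, and they sit at separate places in the cell, so that a cAMP signal near a calcium channel can be ended without ending it elsewhere. In cardiac muscle the PDE3 and PDE4 families are known for holding down cAMP near the calcium handling machinery, and caffeine is itself a weak inhibitor of many of these enzymes as well as an adenosine receptor antagonist. The genes described are those with the symbols Pde1c, Pde2a, Pde3a, Pde3b, Pde4a, Pde4b, Pde4d, Pde5a, Pde7b and Pde8a. Of these 10 names, 9 were matched by symbol among the 43629 genes counted, and all 9 passed the filter on low counts that left 13092 genes.

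Pde2a was not matched by symbol. At its locus the files hold the row ENSMUSG00000030653, which the annotation used for naming calls Gm45837, and 3955 of its 4139 exon bases (95.6%) lie within Pde2a exons. That row is given beside the 9 genes as the Pde2a locus row and is not counted among them.

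The RNA came from whole left ventricles of 6 male CD-1 mice at 1 year of age. CD-1 is an outbred stock, and all animals were F1 offspring that met the treatment only in the womb. In the vehicle group (3 mice) the dams were given saline, and in the caffeine group (3 mice) they were given caffeine at 20 mg/kg, both by daily intraperitoneal injection from E6.5 to E9.5, although one field of the sample labels ends the treatment at E10.5. Poly(A) RNA was sequenced with 1 library per heart, and the sources used here do not say which dam each heart came from, so the p-values take the hearts as independent. In RNA of a whole ventricle, fewer cells of a type and less mRNA per cell cannot be told apart.

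Total counts ran from 9228359 to 10483101 in the vehicle group and from 7613011 to 9153997 in the caffeine group, so every caffeine library was shallower than every vehicle library. The 9 phosphodiesterase genes together held between 2326 and 4305 reads per heart. Levels are given as CPM, reads per gene set to a common library size with TMM factors, and the smallest level that 3 counts can show was between 0.284 and 0.42 CPM. The summed cardiomyocyte markers (Myh6, Tnnt2, Tnni3, Actn2, Ryr2 and Pln) lay between 28658 and 39828 CPM, and 3 of the 4 atrial markers were too low to be tested. A gene was called where edgeR's quasi-likelihood test gave a Benjamini-Hochberg adjusted p below 0.05 and the fold change exceeded 1.5. By that rule 14 of the 13092 genes (0.107%) were called between caffeine and vehicle.

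The 250 bases before the RefSeq start are shown for Pde7b and Pde8a, because each has a single start in the RefSeq table (GRCm38.p6). Among the members in that table they also had the lowest and the only positive fitted difference between caffeine and vehicle. The Pde2a locus row, with a fitted log2 fold change of 0.05, is left out of that comparison, and neither Pde7b nor Pde8a was called. The Pde7b stretch lies at chr10:20548329-20548578 on the minus strand and the Pde8a stretch at chr7:81213015-81213264 on the plus strand. In the annotation used for positions the Pde7b gene begins at chr10:20725078, so its RefSeq start lies inside the gene. Stretches before any other start of Pde7b were not searched. Both stretches are written from 5′ to 3′ along the gene, and capitals mark the half-site of the cAMP response element, TGACG, on either strand.
Pde7b: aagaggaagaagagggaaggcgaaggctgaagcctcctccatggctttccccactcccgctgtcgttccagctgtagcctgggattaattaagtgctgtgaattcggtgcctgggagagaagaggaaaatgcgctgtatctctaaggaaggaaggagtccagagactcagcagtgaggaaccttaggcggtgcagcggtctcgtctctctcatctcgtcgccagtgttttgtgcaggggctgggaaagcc
Pde8a: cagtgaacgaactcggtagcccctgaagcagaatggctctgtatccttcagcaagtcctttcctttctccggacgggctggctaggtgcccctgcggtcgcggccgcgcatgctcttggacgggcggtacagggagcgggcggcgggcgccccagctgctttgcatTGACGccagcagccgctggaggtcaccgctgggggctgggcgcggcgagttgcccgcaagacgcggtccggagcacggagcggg

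The Pde8a stretch held 1 half-site, starting 84 bases before the start, and 2 GC boxes (GGGCGG), while the Pde7b stretch held neither. Its GC content was 68.8%, against 55.2% for Pde7b. Of the 10 names, 8 were found in the table with 19 starts in all. A half-site stood before 3 of these 19 starts, in Pde4a, Pde4b and Pde8a. The same letters, searched on both strands, stood in 17.8% of all 32851 stretches of this length. The full element TGACGTCA, which contains the half-site, was present in 1.55% of all stretches and before no start of the members. The GC box stood in 32.7% of all stretches and before 5 of the 19 starts, in Pde2a, Pde4a, Pde5a and Pde8a. A match of letters is a description of the sequence and not a binding site.

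To compare levels between genes, CPM was divided by the length of the merged exons in kilobases. On this scale Pde4a, a cAMP-specific enzyme, was the highest of the members, at 12.8 ± 1.53 CPM per kb (SD, n = 3) in the vehicle hearts and 11.6 ± 1.19 CPM per kb (SD, n = 3) in the caffeine hearts. Its lowest heart stood above the highest heart of every other member. Pde8a, a cAMP-specific enzyme of high affinity, followed at 6.82 ± 0.608 and 8.07 ± 1.05 CPM per kb in vehicle and caffeine hearts (SD, n = 3 each), together with Pde3a, the cGMP-inhibited enzyme of cardiac muscle, at 7.89 ± 1.54 and 6.59 ± 0.474 CPM per kb (SD, n = 3 each). Pde8a and Pde3a could not be ordered, since Pde8a was the higher in 4 of 6 hearts and their ranges overlapped. The next were Pde1c, Pde4b, Pde7b and Pde4d, whose means over the 6 hearts lay between 3.07 and 1.77 CPM per kb in that order and whose neighbours overlapped. Pde5a, the cGMP-specific enzyme that sildenafil inhibits, and Pde3b, the PDE3 form best known from fat and liver, were the lowest at 0.499 and 0.364 CPM per kb over the 6 hearts, with overlapping ranges. These lengths come from an annotation later than the one used for counting, and a gene whose heart transcripts use few of its exons is set too low by them.

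**Figure D1:**
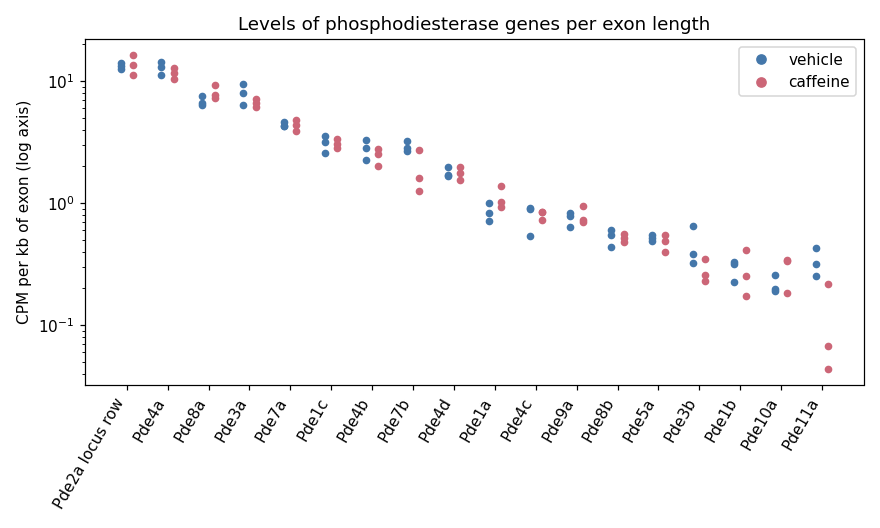
Level of each phosphodiesterase gene in each heart, in CPM per kb of merged exons on a log axis. Blue points are vehicle hearts and red points caffeine hearts, 3 of each per gene; genes with a mean of 0.1 or less are left out. The Pde2a locus row and Pde4a stand highest, and Pde5a and Pde3b are the lowest members. For Pde7b, caffeine replicates 1 and 3 lie below the vehicle points, and caffeine replicate 2 lies among them.

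The Pde2a locus row was as high as Pde4a on this scale, at 13.2 ± 0.722 CPM per kb (SD, n = 3) in the vehicle hearts and 13.7 ± 2.65 CPM per kb (SD, n = 3) in the caffeine hearts. PDE2 is the enzyme that cGMP stimulates to break down cAMP. Summed over the 20 catalytic genes with a row and this locus row, the family stood at 60.4 ± 2.30 CPM per kb in the vehicle hearts and 58.0 ± 2.62 in the caffeine hearts (SD, n = 3 each), and these sums overlapped. By substrate, the cAMP-specific families PDE4, PDE7 and PDE8 held 54.2 ± 1.56% of the summed level in the vehicle hearts and 54.1 ± 3.71% in the caffeine hearts (SD, n = 3 each). Families that act on both cyclic nucleotides held 43.7 ± 1.56% and 43.7 ± 3.60%. The cGMP-specific families held 2.16 ± 0.286% and 2.21 ± 0.125%. The share of each substrate class therefore differed between the groups by less than the SD of either group. The Pde2a locus row alone held 21.9 ± 2.04% of the summed level in the vehicle hearts and 23.5 ± 3.93% in the caffeine hearts (SD, n = 3 each). Its exon length in the annotation used for counting was not checked. A longer one there would lower its level and change the shares of the classes.

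Exposure to caffeine in utero was compared with vehicle for each member. None of the 9 was called (0 of 9, against 0.107% of all genes tested, 0.084% higher and 0.0229% lower with caffeine), and edgeR's exact and likelihood ratio tests, DESeq2 and limma-voom also called 0 of them, where the exact test called 0.718% of all genes. At an unadjusted p below 0.05 in the quasi-likelihood test there was 1, Pde7b, where 8.82% of all genes tested were below that value. In 0 of the 9 did the caffeine hearts lie wholly above or below the vehicle hearts, which was so for 14.2% of all genes tested (7.11% above and 7.12% below). The fitted difference exceeded 1.5-fold for 2 members, Pde3b and Pde7b, and for 4.56% of all genes. The fitted log2 fold change (caffeine over vehicle) was below 0 for 8 members and above 0 for Pde8a, where 49.8% of all genes were below and 50.2% above. The median of the members was −0.14, against 0.00 for all genes tested. It was −0.08 without caffeine replicate 1 and −0.21 without caffeine replicate 2, and with no TMM factors it was −0.22 where that of all genes was −0.08. The signs of Pde1c, Pde4d and Pde5a, the 3 values nearest to 0, turned when single hearts were left out.

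**Figure D2:**
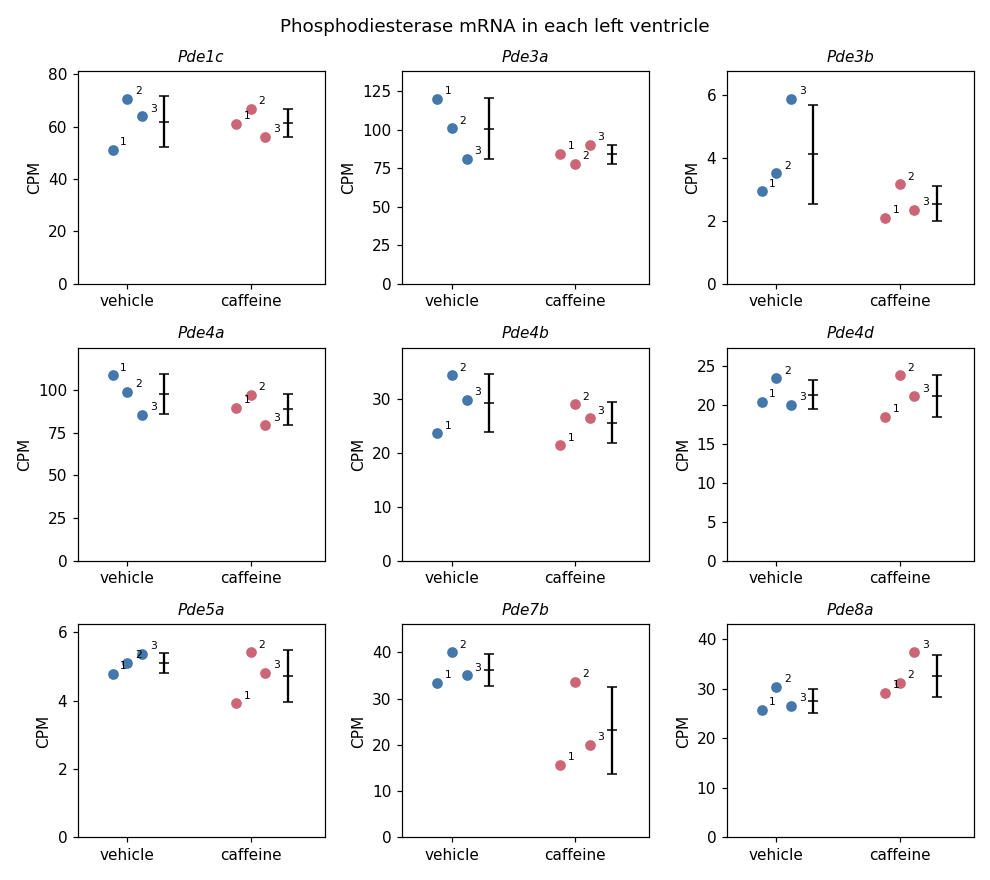
CPM of the 9 members in each left ventricle, with the replicate number beside each point and the mean and SD of each group (n = 3) to its right. In no panel are the groups separate; for Pde7b caffeine replicate 2 (33.6 CPM) stands with the vehicle hearts, while replicates 1 and 3 (15.7 and 20.1 CPM) stand below them.

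Pde7b encodes a cAMP-specific enzyme and lies at chr10:20398004-20725078 on the minus strand. It was measured at 33.4, 40.0 and 35.1 CPM in vehicle replicates 1 to 3 and at 15.7, 33.6 and 20.1 CPM in caffeine replicates 1 to 3. The caffeine replicates 1 and 3 were below every vehicle heart, and caffeine replicate 2 was just above the lowest of them, so the groups overlapped by that heart. The means were 36.2 ± 3.45 and 23.1 ± 9.36 CPM (SD, n = 3 each). The log2 fold change was −0.64 (standard error 0.22, 95% interval −1.12 to −0.15), with an adjusted p of 0.4 in edgeR's quasi-likelihood test and p = 0.2 in a two-sided exact permutation test of log2 CPM, where the smallest possible value is 0.1. The coefficient of variation was 9.53% among the vehicle hearts and 40.5% among the caffeine hearts. In the quasi-likelihood test Pde7b was called without caffeine replicate 2 (log2 fold change −1.01, adjusted p = 0.045), where 22 of 13296 genes tested were called. It was also called with no filter on low counts (−0.65, adjusted p = 0.000153), where 240 of 22407 genes tested were called. Without caffeine replicate 1 its log2 fold change was −0.43 (adjusted p = 0.665). Over all alternatives the adjusted p of Pde7b ran from 0.000153 to 0.719. Pde7b is on the list of differentially expressed genes that the study drew from these same libraries, so its position among the members is not independent evidence.

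Its paralog Pde7a, which is also cAMP-specific, stood at 34.0 CPM in the vehicle hearts and 33.7 CPM in the caffeine hearts, with a log2 fold change of −0.01 (adjusted p = 0.987). The ratio of the paralogs within a heart does not depend on scaling between libraries. The log2 ratio of Pde7b to Pde7a, per exon length, was −0.67, −0.53 and −0.60 in vehicle replicates 1 to 3 and −1.78, −0.84 and −1.28 in caffeine replicates 1 to 3. Every caffeine heart was thus below every vehicle heart on this measure, and the mean difference was −0.70 (exact permutation p = 0.1, the smallest that 3 hearts against 3 allow), or −0.46 without caffeine replicate 1. This ratio was 1 of 6 such ratios computed, and they were chosen after the values had been seen. With Benjamini-Hochberg adjustment over the 6 ratios, its exact permutation p was 0.3.

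**Figure D3:**
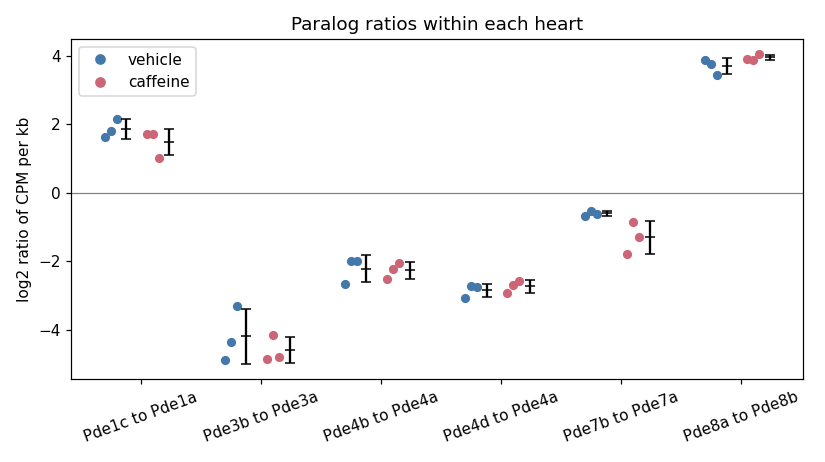
Log2 ratio of CPM per kb between paralogs within each heart (blue, vehicle; red, caffeine), with group means and SD (n = 3). The groups are separate for Pde7b to Pde7a, where caffeine is lower by 0.70, and for Pde8a to Pde8b, where caffeine is higher by 0.26; the other 4 ratios overlap.

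Pde8a lies at chr7:81213596-81334533 on the plus strand and was the only member with a fitted value above 0. Its levels were 25.8, 30.4 and 26.5 CPM in the vehicle hearts and 29.3, 31.3 and 37.4 CPM in the caffeine hearts. Vehicle replicate 2 stood above caffeine replicate 1, and the other caffeine hearts were above all vehicle hearts. The means were 27.6 ± 2.46 and 32.6 ± 4.25 CPM (SD, n = 3 each). The log2 fold change was 0.24 (standard error 0.12, 95% interval −0.03 to 0.52, adjusted p = 0.618), and 0.14 without caffeine replicate 3. Against Pde8b, the other PDE8 gene, which was low at 3.10 and 3.04 CPM in vehicle and caffeine hearts, the log2 ratio was higher in every caffeine heart (mean difference 0.26, exact permutation p = 0.1), and the difference was 0.13 without vehicle replicate 3. Adjusted over the 6 ratios, that exact permutation p was 0.3, and Pde8b rested on 20 to 35 reads per heart.

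Of the cGMP-inhibited PDE3 genes, Pde3a (chr6:141249269-141507448) was measured at 120.1, 101 and 80.8 CPM in the vehicle hearts and at 84.1, 77.9 and 89.9 CPM in the caffeine hearts. Vehicle replicates 1 and 2 were above every caffeine heart and vehicle replicate 3 was within their range. The log2 fold change was −0.26 (95% interval −0.55 to 0.03, adjusted p = 0.62), −0.11 without vehicle replicate 1 and −0.40 without vehicle replicate 3. Exons of Pde3a share 741 bases with an antisense gene, Gm28523, which had 33 reads over the 6 hearts. The strand setting of the counting is not given in the sources used here, and the effect of the overlap on Pde3a was not tested. Pde3b (chr7:114415281-114539251) stood at 2.93, 3.50 and 5.88 CPM with vehicle and at 2.10, 3.16 and 2.35 CPM with caffeine. Its log2 fold change of −0.68 was the lowest fitted among the members, but it rested on 15 to 58 reads per heart (95% interval −1.38 to 0.03, adjusted p = 0.588). Leaving out vehicle replicate 3, the heart with the highest value, gave −0.33. The log2 ratio of Pde3b to Pde3a differed by −0.41 and overlapped between the groups (exact permutation p = 0.7), and it was 0.03 without vehicle replicate 3.

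The PDE4 enzymes are specific for cAMP and are the targets of rolipram. Pde4a (chr9:21165714-21213248) was measured at 109, 99.1 and 85.4 CPM in the vehicle hearts and at 89.5, 97.4 and 79.3 CPM in the caffeine hearts, with ranges that overlapped broadly (log2 fold change −0.14, 95% interval −0.39 to 0.11). For Pde4b (chr4:102087543-102607259) the vehicle hearts held 23.6, 34.4 and 29.8 CPM and the caffeine hearts 21.4, 29.0 and 26.4 CPM (−0.19, 95% interval −0.54 to 0.16). Pde4d (chr13:108449948-109953461), whose product is found with the ryanodine receptor and the potassium channel of the slow repolarizing current, was at 20.4, 23.5 and 20.1 CPM with vehicle and 18.5, 23.8 and 21.1 CPM with caffeine. Its log2 fold change was −0.01, and the 95% interval of −0.30 to 0.28 leaves out the 1.5-fold difference used for calls in either direction. That was also so for Pde1c, Pde3a, Pde4a, Pde4b, Pde5a and Pde8a, and not for Pde3b and Pde7b. The ratios of Pde4b and of Pde4d to Pde4a differed by −0.05 and 0.12 on the log2 scale, and both overlapped between the groups. When single hearts were left out, the log2 fold changes ranged from −0.23 to −0.06 for Pde4a and from −0.32 to −0.06 for Pde4b.

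Pde1c (chr6:56069804-56569103) encodes an enzyme that calcium and calmodulin activate and that acts on both cyclic nucleotides. It was measured at 51.3, 70.8 and 63.9 CPM in the vehicle hearts and at 61.2, 66.8 and 56.2 CPM in the caffeine hearts. All caffeine values were within the vehicle range, and the log2 fold change was −0.01 (95% interval −0.29 to 0.26). Pde5a (chr3:122728947-122859374) was at 4.79, 5.11 and 5.37 CPM with vehicle and at 3.92, 5.42 and 4.81 CPM with caffeine, on 28 to 54 reads per heart (−0.10, 95% interval −0.56 to 0.36). The Pde2a locus row, with 54.8, 51.7 and 57.6 CPM in the vehicle hearts and 68.0, 55.4 and 46.2 CPM in the caffeine hearts, had caffeine values on both sides of the vehicle range (0.05, 95% interval −0.24 to 0.33, adjusted p = 0.96).

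**Figure D4:**
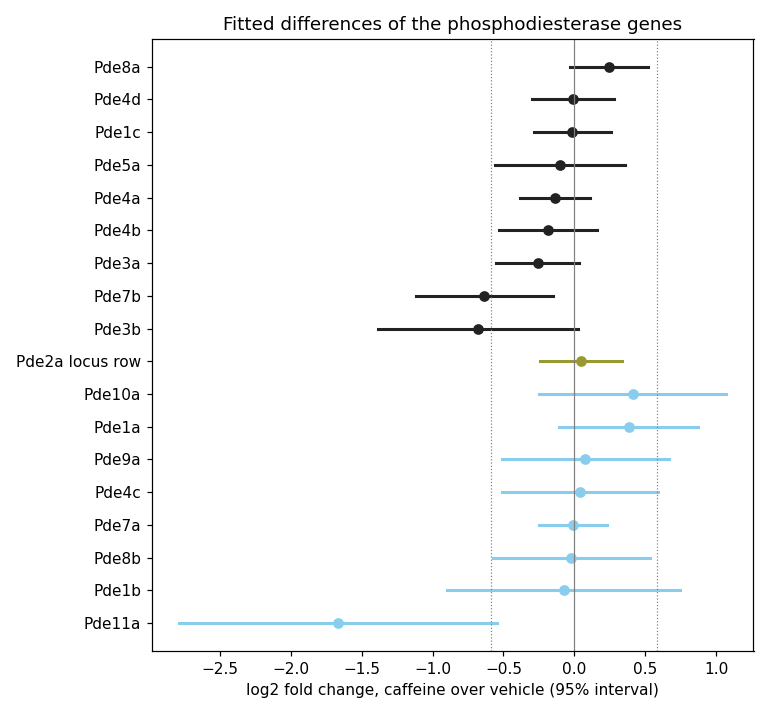
Fitted log2 fold change (caffeine over vehicle) with its 95% interval for the 9 members (black), the Pde2a locus row (olive) and the 8 other catalytic phosphodiesterase genes tested (light blue); dotted lines mark a 1.5-fold difference. Among the members the interval of Pde7b alone lies wholly below 0, from −1.12 to −0.15, before any adjustment for the number of genes.

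Of the 11 other catalytic phosphodiesterase genes, 8 passed the filter and 0 were called by the quasi-likelihood test, with 1, Pde11a, at an unadjusted p below 0.05. Pde6a, Pde6b and Pde6c, which encode the enzyme of the photoreceptors, did not pass. Pde11a, which acts on both cyclic nucleotides, had 17, 14 and 22 reads in the vehicle hearts and 8, 2 and 3 reads in the caffeine hearts, or a mean of 1.74 against 0.566 CPM. All caffeine hearts were below all vehicle hearts, and the log2 fold change was −1.67 (standard error 0.51, adjusted p = 0.324). The other fitted values were 0.41 for Pde10a, 0.38 for Pde1a, 0.08 for Pde9a, 0.04 for Pde4c, −0.01 for Pde7a, −0.02 for Pde8b and −0.07 for Pde1b, and the hearts overlapped for each. Pde6d, which carries prenylated proteins and is not a phosphodiesterase in itself, had a log2 fold change of 0.06.

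The phosphodiesterases were then set beside the genes that make, sense and place cyclic nucleotides. Of 80 such genes in 7 lists, the other phosphodiesterases included, 67 were tested and 0 were called by the quasi-likelihood test. At an unadjusted p below 0.05 there were 9 (8.82% of all genes tested were below that value), and in 6 genes the caffeine hearts lay above and in 7 below all vehicle hearts (7.11% and 7.12% of all genes). edgeR's exact and likelihood ratio tests and DESeq2 each called 1 of them, Hcn4, and limma-voom called 0.

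Among the adenylyl cyclases, which make cAMP, 7 of 10 were tested with a median log2 fold change of −0.13. Adcy5 and Adcy6 are the main forms of cardiac muscle. Adcy5 averaged 168 CPM in the vehicle hearts and 124 CPM in the caffeine hearts (log2 fold change −0.44, adjusted p = 0.285), and Adcy6 averaged 160.2 and 124 CPM (−0.37, adjusted p = 0.214). In both, and in Adcy9 (−0.38), every caffeine heart was below every vehicle heart, while for Adcy3 (0.60) every caffeine heart was above; Adcy9 and Adcy3 are named after their values were seen, and 14.2% of all genes tested did not overlap. Adcy5 and Adcy6 hold most of the reads of the list. The 8 tested genes of cGMP synthesis, a list of natriuretic peptide receptors, guanylyl cyclase subunits and nitric oxide synthases, had fitted values between −0.09 and 0.14, with Npr2, a natriuretic peptide receptor, at −0.05 and Gucy1b1, a subunit of the nitric oxide receptor, at 0.14. In none of these 8 did the groups separate.

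Of the effectors of cyclic nucleotides, listed together with the catalytic subunits and inhibitors of protein kinase A, 16 of 19 were tested, with a median of −0.04. Hcn4, the pacemaker channel that cAMP opens, averaged 13.8 CPM with vehicle and 6.34 CPM with caffeine (log2 fold change −1.12, adjusted p = 0.102), and all caffeine hearts were below all vehicle hearts. Prkar1a, a regulatory subunit of protein kinase A and the effector with the most reads, had a log2 fold change of 0.12. All 18 anchors and partners were tested (median −0.06), of which Pde4dip, the muscle protein myomegalin that binds PDE4D, had both the highest level and the smallest p. It averaged 2560.2 CPM with vehicle and 2130 CPM with caffeine (−0.27, adjusted p = 0.505), and the groups overlapped. Of the 10 genes that CREB, the transcription factor activated by cAMP, is known to induce, 9 were tested with a median of 0.21. Fos stood at 1.98 and 4.48 CPM in vehicle and caffeine hearts (1.18, adjusted p = 0.269), above in every caffeine heart, and Ppargc1a, the highest of the list, had a log2 fold change of 0.03. Rgs2, named after its values were seen, went the other way (−0.51) and was below in every caffeine heart.

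**Figure D5:**
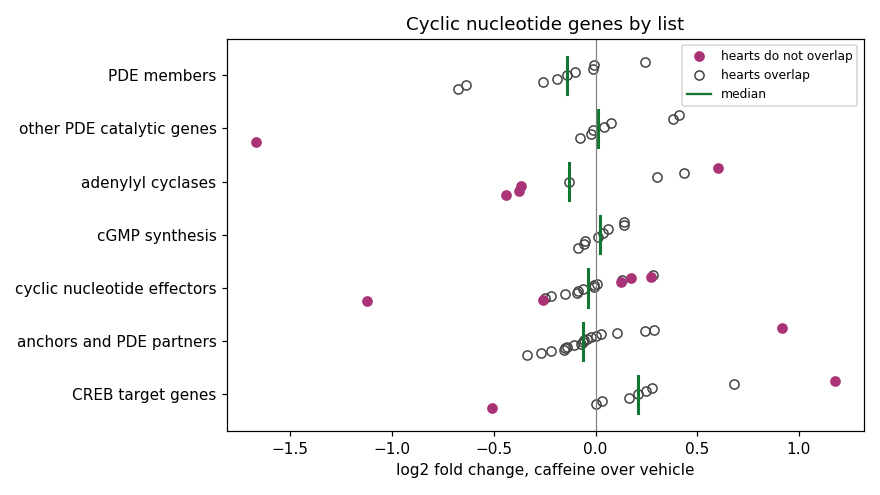
Fitted log2 fold change (caffeine over vehicle) of each tested gene, by list; filled points are genes whose caffeine hearts lie all above or all below the vehicle hearts, open points overlap, and green bars are list medians. The members have no filled point, and the adenylyl cyclases have 3 below 0 and 1 above.

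Markers of several cell types were measured in the same hearts, and their part in the values of the phosphodiesterases was not tested. The 5 conduction system markers summed to between 28.3 and 33.2 CPM in the vehicle hearts and between 13.0 and 14.8 CPM in the caffeine hearts. In caffeine replicates 1 to 3 these sums were 14.3, 14.8 and 13.0 CPM. The 6 fibroblast markers summed to between 759.6 and 915.5 CPM with vehicle and between 999.8 and 1147 CPM with caffeine. These sums also did not overlap, but most of each was Dcn, which averaged 552 CPM with vehicle and 670 CPM with caffeine. Taken singly, only Dcn and Col3a1 did not overlap between the groups, while Col1a1, Col1a2, Pdgfra and Tcf21 did. Sums of the cardiomyocyte (32386 to 39828 against 28658 to 33138 CPM), endothelial (589 to 673 against 598 to 647 CPM), smooth muscle and pericyte (839 to 989.9 against 819 to 999.96 CPM) and macrophage and leukocyte markers (111 to 174 against 136 to 251 CPM) overlapped. So did those of erythroid (712 to 1332 against 769 to 1626 CPM), Schwann cell (1.80 to 4.01 against 1.88 to 3.50 CPM) and atrial markers (1.32 to 2.15 against 0.840 to 2.35 CPM). Most of the macrophage and leukocyte sum was Lyz2, which averaged 108 CPM with vehicle and 154 CPM with caffeine. Of the single markers in that sum, Adgre1 (log2 fold change 0.93) and Csf1r (0.34) were above in every caffeine heart. Ptprc, Cd68 and Lyz2 overlapped, and all 5 fitted values were above 0. Over all genes tested, 7.11% lay above in every caffeine heart. The adipocyte markers, with Ucp1 at 0 in every heart, summed to between 0.608 and 2.05 CPM with vehicle and between 0.113 and 0.469 CPM with caffeine, which did not overlap but rested on too few reads to be tested. No marker was called by the quasi-likelihood test or limma-voom, while 3 fibroblast, 1 macrophage and leukocyte and 2 conduction system markers had an unadjusted p below 0.05. edgeR's exact and likelihood ratio tests called Adgre1, Cntn2, Col3a1 and Hcn4, and DESeq2 called Cntn2, Col3a1 and Hcn4.

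Caffeine replicate 1 was the lowest of the 6 hearts for Pde3b, Pde4b, Pde4d, Pde5a and Pde7b (5 of 9 members) and the highest for none. It was also the shallowest library and had the largest share of its reads in its 10 highest genes, 25.95%. That share was 24.07% and 22.59% in caffeine replicates 2 and 3, and 17.07% to 20.07% in the vehicle hearts. Every caffeine library was thus above every vehicle library in this share, as every one was shallower. The part of depth and of this share in the values of the phosphodiesterases was not tested. Without caffeine replicate 1 the log2 fold change was 0.08 for Pde4d and 0.01 for Pde5a, and Pde7b moved from −0.64 to −0.43.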

How the data were processed

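Left ventricular poly(A) RNA of 6 mice was measured, 3 per treatment. The deposited counts are raw whole-number reads per Ensembl gene, which the authors made from single-end reads with FastQC, Tophat2 on mm10 (GRCm38) and HTSeq on Ensembl release 79; replicates were not pooled. Groups and replicate numbers came from the sample titles. Symbols, positions and exon lengths came from GENCODE release 21 of the mouse series. Here genes were filtered with filterByExpr (minimum count 10, minimum total 15), scaled by TMM and fitted by edgeR 4.0.16 (glmQLFit, glmQLFTest; R 4.3.3) with treatment as the only term, and p-values were adjusted over all 13092 genes. A standard error is the log2 fold change divided by the square root of F. Exact tests used the 20 labelings of the hearts on log2 CPM (prior count 2). The fits were tested on simulated data.

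Alternatives were DESeq2 1.42.0, limma 3.58.1 (voom), other edgeR tests, scalings and filters, the replicate number as a block, and each heart left out; leave-one-out values of the paralog ratios were added after seeing the data. The members and lists were chosen with earlier results of these data known. All members and all tested catalytic phosphodiesterases are named, and of each other list the called genes, the gene with the smallest p and that with the highest mean. Figures used Python 3.11.15 and Matplotlib 3.10.9.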

Additional observations from a re-analysis of the deposited data

How the results depend on the processing

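The 14 genes called overall became 94 with edgeR's exact test, 101 with the likelihood ratio test, 67 with DESeq2, 27 with library size only, 240 with no filter and 40 when the fit held a replicate block, and 4 to 28 when 1 heart was left out. The block called 0 members and 1 pathway gene. Deviations of hearts with the same number correlated across genes with r between −0.038 and 0.045. For hearts with different numbers r lay between −0.083 and 0.12. With 3 hearts per group these values cannot show whether equal numbers mark pairs. The number of members called stayed at 0 except with no filter (1, Pde7b, where 240 of 22407 genes tested were called). Over the hearts left out it ranged from 0 to 1 (Pde7b, without caffeine replicate 2, where 22 of 13296 genes tested were called). Members whose groups did not overlap numbered 1 (Pde7b) with library size only (17% of all genes tested) and with no filter (11.1%), and 0 to 3 when 1 heart was left out, where 22% to 26.6% of all genes did not overlap. Pathway genes called numbered 1 (Hcn4) with the exact, likelihood ratio and DESeq2 tests and with library size only, 4 (Fos, Hcn4, Nr4a1 and Pde11a) with no filter, and 0 to 1 when 1 heart was left out. Of 135 refitted member values, 127 kept their sign and their side of the threshold. The sign turned for Pde1c without vehicle replicate 2 (0.092), vehicle replicate 3 (0.008) or caffeine replicate 3 (0.048), for Pde4d without vehicle replicate 2 (0.065) or caffeine replicate 1 (0.075), and for Pde5a without caffeine replicate 1 (0.008); with 1 heart left out the values ranged from −0.134 to 0.092, −0.105 to 0.075 and −0.215 to 0.008. The Pde3b to Pde3a ratio turned without vehicle replicate 3 (0.032; range −0.755 to 0.032), and that of Pde4b to Pde4a ranged from −0.275 to 0.082. The cause of these shifts was not tested. The smallest exact p that 3 hearts against 3 allow is 0.1, and Pde3b and Pde5a had at most 58 reads per heart.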
